A study of Mus musculus with 108 samples.

Results

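Krt7, Krt8, Krt18, Krt19, Sox9, Spp1, Tm4sf4, Clu, Muc1 and Cftr are keratin genes and genes commonly used to mark pancreatic duct cells. These 10 genes were chosen by symbol, and each matched 1 of the 45195 gene rows of the expression table, so all 10 were measured. They are described here across single acinar cells, which make and secrete the digestive enzymes of the pancreas, to show how widely each was expressed among cells of the normal gland. The cells came from the pancreas of untreated male C57BL/6 mice aged 12 weeks, and nothing in the labels set any cells apart by treatment, genotype or age. Single acinar cells were collected from a collagenase digest of the gland and sequenced by a modified SMART-seq2 procedure, which reads polyadenylated RNA and carries no molecular identifiers. The cells, 87 with full and 21 with short totals as set out further on, formed 1 group, and no animal, day or plate was named. The group therefore counted as 1 sample, and the spread given is between cells, with no p-value.

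Acinar and duct cells are both epithelial cells of the exocrine gland and arise from common progenitors. Duct cells line the tubes that carry the enzymes away and secrete bicarbonate-rich fluid through channels such as the chloride channel encoded by Cftr. Keratins form the intermediate filaments of epithelia as pairs of 1 type I and 1 type II chain. Krt8 (type II) and Krt18 (type I) are the usual pair of simple epithelia, to which duct epithelium adds Krt7 (type II) and Krt19 (type I). Sox9 is a transcription factor of pancreatic progenitors and adult ducts, Spp1 encodes the secreted phosphoprotein osteopontin, and Tm4sf4 encodes a membrane protein of the transmembrane 4 L6 family. Clu encodes the secreted chaperone clusterin, and Muc1 a mucin of the apical membrane.

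The genes fell into a pair with high values in the same few cells, Spp1 and Tm4sf4, and a keratin pair whose levels varied together, Krt8 and Krt18. For this reason the 250 bases upstream of their starts are shown, from RefSeq on GRCm38.p6, 5′ to 3′ on the strand of the gene. RefSeq starts can differ from those of the gene spans given further on. The windows are chr5:104434861-104435110 (plus strand) for Spp1, chr3:57425160-57425409 (plus strand) for Tm4sf4, chr15:102004343-102004592 (minus strand) for Krt8 and chr15:102027966-102028215 (plus strand) for Krt18. Capitals mark matches, on either strand, to the motifs TATAAA (core promoter), GGGCGG (SP1 family), TGAGTCA (AP-1), GTTAAT (part of an HNF1 site) and AACAAT (SOX family).
Spp1: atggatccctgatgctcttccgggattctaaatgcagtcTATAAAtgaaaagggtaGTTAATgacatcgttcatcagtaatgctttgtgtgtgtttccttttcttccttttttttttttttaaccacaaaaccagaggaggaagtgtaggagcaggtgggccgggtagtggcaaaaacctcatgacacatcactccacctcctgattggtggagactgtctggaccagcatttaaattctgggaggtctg
Tm4sf4: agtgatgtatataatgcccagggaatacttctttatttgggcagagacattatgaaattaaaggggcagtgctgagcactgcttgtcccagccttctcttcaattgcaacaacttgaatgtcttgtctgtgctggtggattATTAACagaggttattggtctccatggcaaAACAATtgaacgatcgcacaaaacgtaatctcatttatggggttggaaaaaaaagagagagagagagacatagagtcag
Krt8: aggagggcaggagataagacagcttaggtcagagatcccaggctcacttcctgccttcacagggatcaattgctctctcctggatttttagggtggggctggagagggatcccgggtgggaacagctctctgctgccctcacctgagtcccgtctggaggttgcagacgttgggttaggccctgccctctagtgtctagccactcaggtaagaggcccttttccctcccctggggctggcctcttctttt
Krt18: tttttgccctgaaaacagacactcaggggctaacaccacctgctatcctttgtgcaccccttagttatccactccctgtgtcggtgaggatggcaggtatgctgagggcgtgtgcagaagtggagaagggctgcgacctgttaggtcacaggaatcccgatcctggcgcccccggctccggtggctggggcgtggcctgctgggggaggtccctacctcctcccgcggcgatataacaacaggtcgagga
The windows of Spp1 and Tm4sf4 each held GTTAAT, beginning at position -194 from the first transcribed base of Spp1 and at -109 from that of Tm4sf4, where it lies on the opposite strand and reads ATTAAC. Spp1 also held TATAAA at -211, and Tm4sf4 held AACAAT at -79. Krt8 and Krt18 held no match to any of these motifs. Of 32851 RefSeq promoter windows of 250 upstream bases, 12.4% held TATAAA, 32.7% GGGCGG, 4.46% TGAGTCA, 6.43% GTTAAT and 9.42% AACAAT. A match describes letters in a window and does not show that a factor binds there. A second RefSeq start of Spp1 had no match in its window, and promoter windows of 7 of the 10 genes were found.

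Values are in TPM (transcripts in proportion to a fixed total), a read share that is corrected for transcript length, so levels can be set side by side between genes. A gene was called detected in a cell at or above 1 TPM. Cells had from 2624 to 6946 genes detected, the latter in cell 40, around a median of 4156. The TPM of 87 cells, called full-total cells, added up to 999982 to 1000001, and those of 21 cells numbered 92 and higher, called short-total cells, to 788380 to 990520. The full-total cells were divided into 47 numbered up to 48 and 40 numbered 49 to 91, a bound chosen after values were seen. Digestive enzymes took from 75.4% to 93.4% of the TPM of each cell (median 89.03%). Of 10 acinar markers, 9 or 10 were detected in every cell, so each cell held acinar transcripts. Detection alone does not show that all RNA of a sample came from 1 acinar cell. The marker missing in most cells was Nr5a2, a nuclear receptor, detected in 26. Depth in reads is unknown, so a gene below 1 TPM was not called detected, which does not show that it was absent.

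Of the 10 genes, 4 were detected in every cell, namely Clu, Krt18, Muc1 and Krt8. Across the table, 4.03% of the 19969 genes above 0 in any cell were detected in every cell. Krt19 joined them among the 5 genes detected in at least 50% of cells, a level reached by 18.7% of all genes. Sox9 was detected in 28 cells, Spp1 in 10, Tm4sf4 in 9, Krt7 in 1 and Cftr in 0. These last 5 are called the sparse genes below, and 4 of them lay under 10% of cells, as did 63.8% of all genes. The levels of the broadly detected genes spanned a wide range, and the plot of the 10 genes by cell shows them in order of their level.

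**Figure D1:**
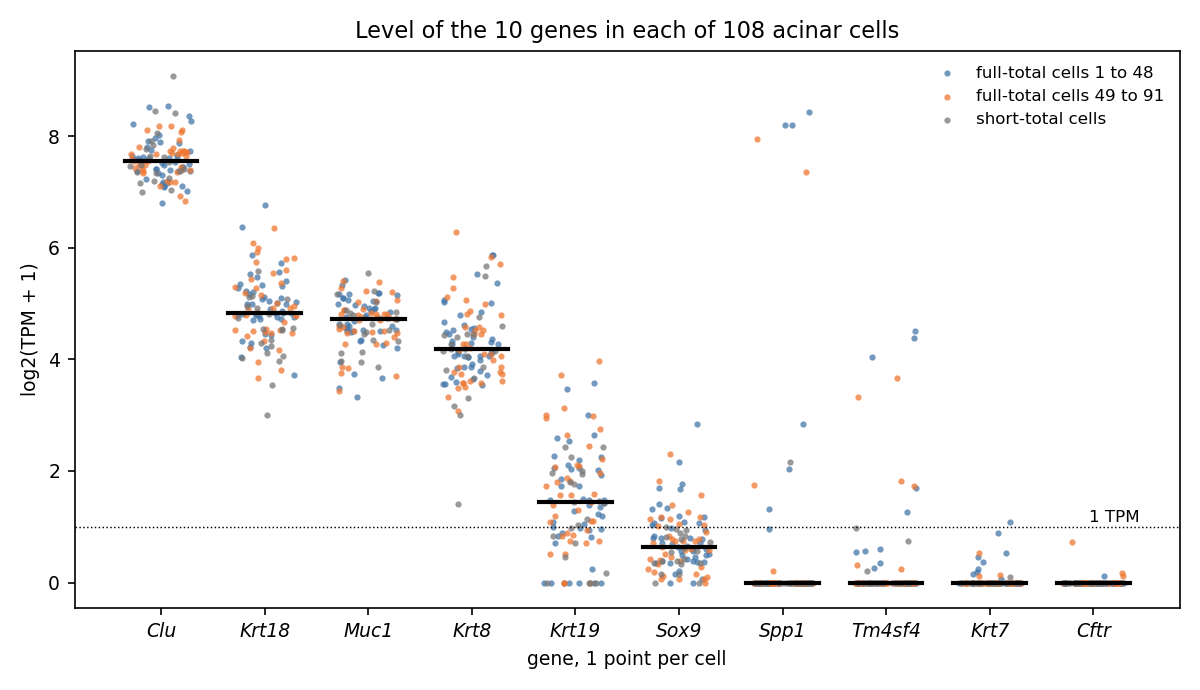
Level of each of the 10 genes, as log2(TPM + 1), in every cell (1 point per cell, coloured by set of cells, bar at the median). Clu has the highest median, Krt18, Muc1 and Krt8 overlap, Krt19 and Sox9 straddle the dotted line at 1 TPM, and Spp1 and Tm4sf4 are at 0 in most cells with 5 cells far above the rest.

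Krt8 (ENSMUSG00000049382, chr15:101996698-102004482, minus strand) ranged from 1.66 TPM in a short-total cell to 76.48 TPM in cell 69, with a median of 17.1 TPM. The quartiles were 13.3 and 22.9 TPM and the mean was 20.8 ± 12.3 TPM (SD over all cells). Krt18 (ENSMUSG00000023043, chr15:102028180-102032027, plus strand) ranged from 7.04 TPM to 107.69 TPM in cell 38, with a median of 27.7 TPM and a mean of 31.4 ± 15.6 TPM. These genes lie 23697 bases apart, in the keratin cluster that also holds Krt7. Both were present in every cell, but their levels differed between cells more than those of most genes of like mean. The squared coefficient of variation (CV, the SD divided by the mean) was 2.45 times the trend over all genes for Krt8 and 2.01 times for Krt18, and at least 2 times is called variable here. Of the 7227 genes detected in at least 10% of cells, 12% were variable by this rule, and of the 6 genes among the 10 that could be set against the trend, 3 were, the third being Krt19. The call of Krt18 lay at the threshold and was lost in 3 of 6 alternatives, at 1.99 times with every gene above 0 in the trend, at 1.997 times with a wider smoothing span and at 1.85 times with the digestive enzymes left out of the scaling.

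The levels of Krt8 and Krt18 were correlated over the cells. Their Spearman correlation was 0.59 over all cells on the log2(TPM + 1) scale, and Pearson's r was 0.70, or 0.65 without the 2 cells farthest from the median of Krt8. It was 0.54 within the 47 full-total cells numbered up to 48, 0.70 within the 40 numbered 49 to 91 and 0.54 within the short-total cells. The 10 highest cells of each gene shared 6 cells, numbered 8, 38, 40, 61, 62 and 69. Both genes also followed the number of genes detected in a cell, with Spearman correlations of 0.54 for Krt8 and 0.59 for Krt18. With median-of-ratios scaling the correlation between the pair was 0.49. The cells share library preparation and an unknown number of mice, and how far these or depth enter the correlation was not tested.

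Within a cell, Krt18 usually exceeded its partner. The ratio of Krt8 to Krt18 had a median of 0.617 (quartiles 0.509 and 0.824) and was below 1 in 96 cells and at least 1 in 12. Its lowest and highest values, 0.236 and 1.96, were both in short-total cells. The median ratio was 0.590 in the cells numbered up to 48, 0.591 in those numbered 49 to 91 and 0.811 in the short-total cells. Summed over all keratins of each type, type II stood at a median of 0.556 of type I and at or above it in 6 cells. The plot of Krt8 against Krt18 shows this excess as points below the line of equal TPM.

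**Figure D2:**
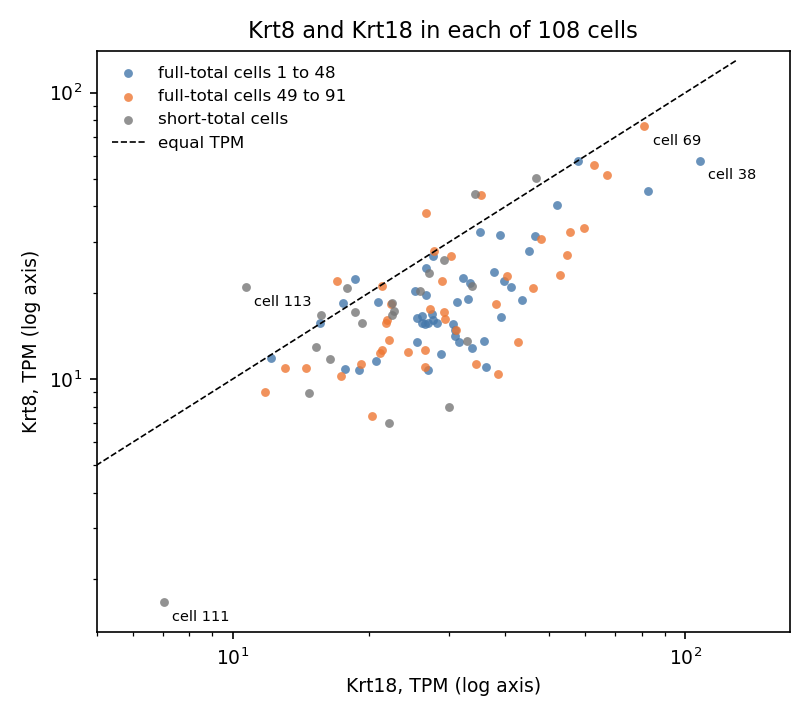
Krt8 against Krt18 in every cell, in TPM on log axes, coloured by set of cells, with a dashed line at equal TPM. In 96 cells the point lies below the line, and the cells with the lowest and highest ratio, both short-total, are labelled beside cells 38 and 69.

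Krt19 (ENSMUSG00000020911, chr11:100140810-100148665, minus strand), the type I keratin of ducts, was detectable in most cells at a low level. It reached 1 TPM in 72 cells, which is 66.7% (exact 95% binomial interval 56.9% to 75.4%, counting error only), and was above 0 in 94. Its values ran from 0 through a median of 1.72 TPM to 12.12 TPM in cell 53 and 14.66 TPM in cell 69, and 4 cells held at least 10 TPM. Krt19 varied at 2.30 times the trend, and cell 69 was the highest cell for both Krt19 and Krt8. Its Spearman correlation with Krt8 was 0.47 over all cells, 0.52 in full-total cells and 0.18 in the short-total cells. Krt8 exceeded Krt19 in every cell. Krt7 (ENSMUSG00000023039, chr15:101411043-101430313, plus strand), the type II keratin of ducts, was near the floor of the data. It was above 0 in 13 cells and reached 1 TPM in 1 of them, cell 26, at 1.11 TPM (0.926% of cells, interval 0.0234% to 5.05%).

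Among all keratins, the acinar cells expressed a small set, but zeros were common among genes of every kind. Of the 45195 rows of the whole table, 25226 stayed at 0 throughout, and 7227 reached 1 TPM in 11 or more cells (10%). Whether keratins differed from genes in general was not tested. Of 54 keratin genes in the table (28 of type I and 26 of type II), 38 were at 0 in every cell, 9 were detected in any cell and 4 in at least 10% of cells, namely Krt18, Krt8, Krt19 and Krt23. Krt23, a type I keratin, was detected in 72 cells at a median of 1.37 TPM, and peaked in cell 29 at 6.77 TPM, varying at 1.06 times the trend. Krt18 supplied a median of 89.02% of the type I keratin TPM of a cell (lowest 64.6%), and Krt8 at least 93.4% of the type II keratin TPM. Of 11 measured genes whose products anchor or bind keratins, such as desmosome and plakin proteins, 2 were detected in at least 50% of cells and 0 of the 6 set against the trend were variable. They were led by Jup, the desmosome protein plakoglobin, in 90 cells at 2.30 ± 1.49 TPM (SD over cells) and the plakophilin Pkp3 in 72 cells at 1.76 ± 1.60 TPM. The desmoglein Dsg2 reached 1 TPM in 40 cells and the plakophilin Pkp4 in 30.

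Clu (ENSMUSG00000022037, chr14:65968483-65981547, plus strand) was the most abundant of the 10 genes in all but 3 cells, 29, 40 and 56, where Spp1 exceeded it. It ranged from 110.95 TPM through a median of 188.1 TPM to 540.21 TPM in cell 95, with a mean of 200.2 ± 62.7 TPM that ranked 82 among all genes. The next highest cells were 36 (373.38 TPM), 15 (365.26 TPM) and 97 (348.78 TPM), so cell 95 stood above the others. Muc1 (ENSMUSG00000042784, chr3:89229057-89233381, plus strand) ranged from 9.02 TPM through a median of 25.4 TPM to 46.06 TPM in cell 92. Its mean was 25.2 ± 7.58 TPM. The CV was 0.301 for Muc1 and 0.313 for Clu, against 0.590 for Krt8 and 0.497 for Krt18. Relative to the trend Muc1 stood at 0.683 times and Clu at 1.48 times, and neither was variable. With the digestive enzymes left out of the scaling, Clu stood at 2.44 times and was variable. Clu and Muc1 shared 0 of their 10 highest cells.

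The order of the broadly detected genes was firm at its ends and loose in its middle. Clu exceeded Krt18, Muc1, Krt8, Krt19 and Sox9 in every cell, and Krt19 lay below Krt8, Krt18 and Muc1 in all of them. Krt18 exceeded Muc1 in 71 cells and lay below it in 37, and Muc1 exceeded Krt8 in 79 cells and lay below it in 29. The ranges of these 3 genes overlapped widely, so their neighbouring medians do not differ beyond the spread between cells. Krt19 exceeded Sox9 in 83 cells and lay below it in 23.

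Sox9 (ENSMUSG00000000567, chr11:112782224-112787760, plus strand) gave a low signal in nearly all cells. It was at 0 in 5 cells, had a median of 0.56 TPM, and reached 1 TPM in 28 cells (25.9%, interval 17.97% to 35.2%). The highest values were 6.14 TPM in cell 40, 3.93 TPM in cell 71 and 3.46 TPM in cell 8. Sox9 did not vary beyond the trend (1.02 times). Detection of Sox9 was spread unevenly over the sets of cells, in 15 of 47 cells numbered up to 48, 12 of 40 numbered 49 to 91 and 1 of 21 short-total cells, whose medians were 0.64, 0.59 and 0.46 TPM. The short-total cells also had fewer genes detected, with a median of 3939 against 4224 in full-total cells, and the part of depth in this difference was not tested.

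Spp1 (ENSMUSG00000029304, chr5:104435118-104441050, plus strand) was at 0 in 96 cells and very high in 5. Cells 15, 29, 40, 56 and 75 held 343.58, 293.89, 293.72, 245.77 and 164.18 TPM. The next cell, 34, held 6.14 TPM, and cells 96, 30, 62 and 39 held between 1.5 and 3.47 TPM. In cells 29, 40 and 56 these values exceeded those of Clu (224.1, 258.74 and 212.17 TPM), and in cells 15 and 75 they lay below them (365.26 and 222.82 TPM). Detection at 1 TPM covered 10 cells (9.26%, interval 4.53% to 16.4%). Of the 749 genes with a mean of at least 10 TPM, Spp1 was the 1 gene detected in under 10% of cells. A gene model without a named product, Gm42793, overlaps Spp1 on the same strand and was detected in 2 cells, 40 and 56, with a highest value of 21.17 TPM, so the split of reads between the pair is uncertain there.

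Tm4sf4 (ENSMUSG00000027801, chr3:57425314-57441677, plus strand) was high in those same 5 cells. It held 15.44 TPM in cell 15, 21.67 TPM in cell 29, 19.80 TPM in cell 40, 9.03 TPM in cell 56 and 11.73 TPM in cell 75. The remaining cells at or above 1 TPM were 59 (2.52 TPM), 54 (2.31 TPM), 14 (2.24 TPM) and 43 (1.4 TPM), and 89 cells were at 0. The 5 cells were picked as the highest in Spp1, so their place above the others in that gene follows from the choice. For Tm4sf4 they also did not overlap with the other cells, as the plot of Spp1 against Tm4sf4 shows. The share of all genes with the same 5 highest cells is given further on. Both genes were detected together in 5 cells, Spp1 without Tm4sf4 in 5, Tm4sf4 without Spp1 in 4 and neither in 94. Tm4sf4 was detected in 50% of cells with Spp1 and in 4.08% of cells without it. Of 4 other members of the Tm4sf family, 1 was detected in any cell, Tm4sf1, at 6.50 TPM in cell 40.

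**Figure D3:**
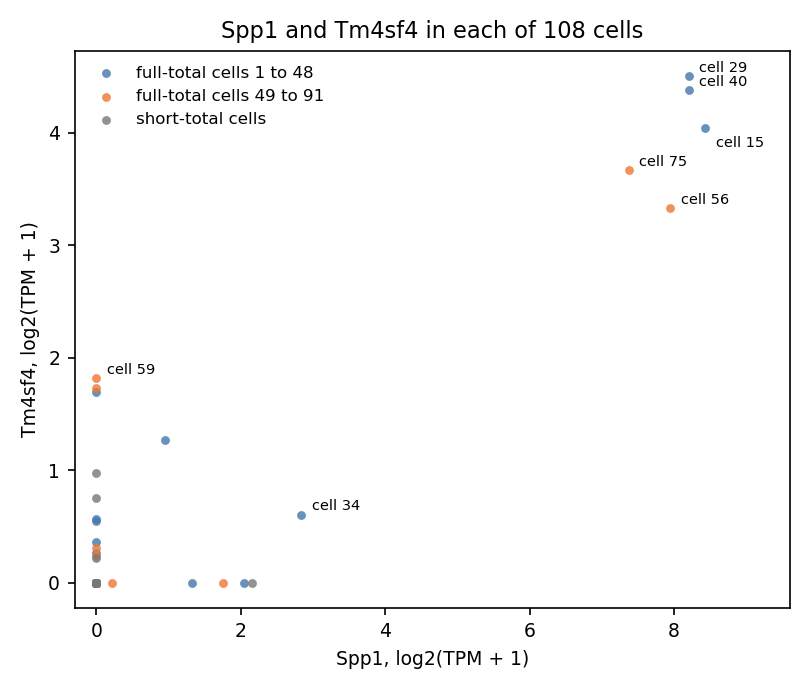
Spp1 against Tm4sf4 in every cell, as log2(TPM + 1), coloured by set of cells, with many cells lying on top of one another at the origin. Cells 15, 29, 40, 56 and 75 lie apart at the upper right, 3 of them numbered up to 48 and 2 numbered 49 to 91, and cell 34 and cell 59 are the next highest for Spp1 and Tm4sf4.

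The other members did not mark these 5 cells as sharply. In the order 15, 29, 40, 56 and 75, Sox9 stood at 1.51, 2.39, 6.14, 2.51 and 0.67 TPM, so 4 of the 5 passed 1 TPM. Sox9 was detected in 24 cells outside them. Krt19 stood at 3.09, 3.81, 11, 6.95 and 3.20 TPM, all above its median over all cells. Krt7 was below 1 TPM but above 0 in each, from 0.09 to 0.84 TPM, and 8 other cells were also above 0. Cftr (ENSMUSG00000041301, chr6:18170687-18322768, plus strand) reached 1 TPM in 0 cells (exact 95% binomial interval 0% to 3.36%), and the limit of 3 cells for a count of 0 is 2.78%. Both bounds concern cells at or above 1 TPM and not all cells with any Cftr reads. It was above 0 in 4 cells, of which 56 (0.66 TPM), 40 (0.09 TPM) and 75 (0.08 TPM) are among the 5, the other being cell 70 (0.12 TPM).

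The broadly detected keratins were present at 26.81 to 57.52 TPM for Krt8 and 30.25 to 57.88 TPM for Krt18 in these 5 cells, above the medians of both genes but within the range of the other cells. Clu stood at 365.26 TPM in cell 15 and between 212.17 and 258.74 TPM in the others. Muc1 ranged from 18.61 to 28.94 TPM, on both sides of its median. Counting all 10 genes, 23 cells held 4 of them, 63 held 5, 13 held 6, 5 held 7 and 4 held 8. Of the 5 sparse genes, 74 cells held 0, 24 held 1, 6 held 2 and 4 held 3, the last being cells 15, 29, 40 and 56. Cell 75 held 2, since its Sox9 lay below 1 TPM.

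Other pairs were detected together as well. Sox9 and Spp1 were detected together in 6 cells, and Spp1 was found in 21.4% of cells with Sox9 and 5% of those without. Sox9 and Tm4sf4 were also together in 6 cells, with Tm4sf4 in 21.4% of cells with Sox9 and 3.75% of those without. Sox9 was found in 66.7% of cells with Tm4sf4 and 22.2% of those without. Cells 15, 29, 40 and 56 were among the cells of both pairs. Krt19 and Sox9 were detected together in 17 cells, and Sox9 was found in 23.6% of cells with Krt19 and 30.6% of those without. Krt19 and Spp1 were detected together in 9 cells, or 12.5% of the cells with Krt19 against 2.78% of those without. All 45 pairs were counted. Among the 10 pairs of broadly detected genes, Spearman correlations ran from 0.12 to 0.59, the highest being that of Krt8 and Krt18.

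Besides Spp1 and Tm4sf4, 18 genes had cells 15, 29, 40, 56 and 75 as their 5 highest cells. Together these 20 genes, Spp1 included, were 0.204% of the 9823 genes detected in at least 3 cells. Spp1 itself picked the 5 cells. Of the 20, St3gal4, Wfdc18, Cp, Trf, Igfbp7, Hhex, Fgfr2, Fmo2, Dcdc2a, Ncald and Lama4 were detected in 0 cells outside them. Such genes passed the filter of 3 cells through the 5 cells alone, so the share is not an independent background. The comparison was chosen after the values of Spp1 were seen. By the gap between the lowest of the 5 cells and the next cell, on the log2(TPM + 1) scale, the genes that stood clearest were Spp1 (4.53), Apoe (2.60), Tm4sf4 (1.51) and St3gal4 (1.38). Apoe, which encodes the lipid carrier apolipoprotein E, held 66.65, 122.95, 105.03, 77.58 and 52.90 TPM in cells 15, 29, 40, 56 and 75 and at most 7.91 TPM elsewhere. St3gal4, a sialyltransferase gene, held 1.61 to 6.25 TPM and was at 0 in every other cell. Cp, the copper-binding ferroxidase ceruloplasmin, held 2.02 to 10.74 TPM against at most 0.64 TPM, and Trf, transferrin, was at 0 outside the 5 cells. Hhex, a homeobox transcription factor of foregut organs, held 1.16 to 8.55 TPM against at most 0.55 TPM. Fgfr2, a fibroblast growth factor receptor gene, reached 2.84 TPM and was at 0 elsewhere.

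**Figure D4:**
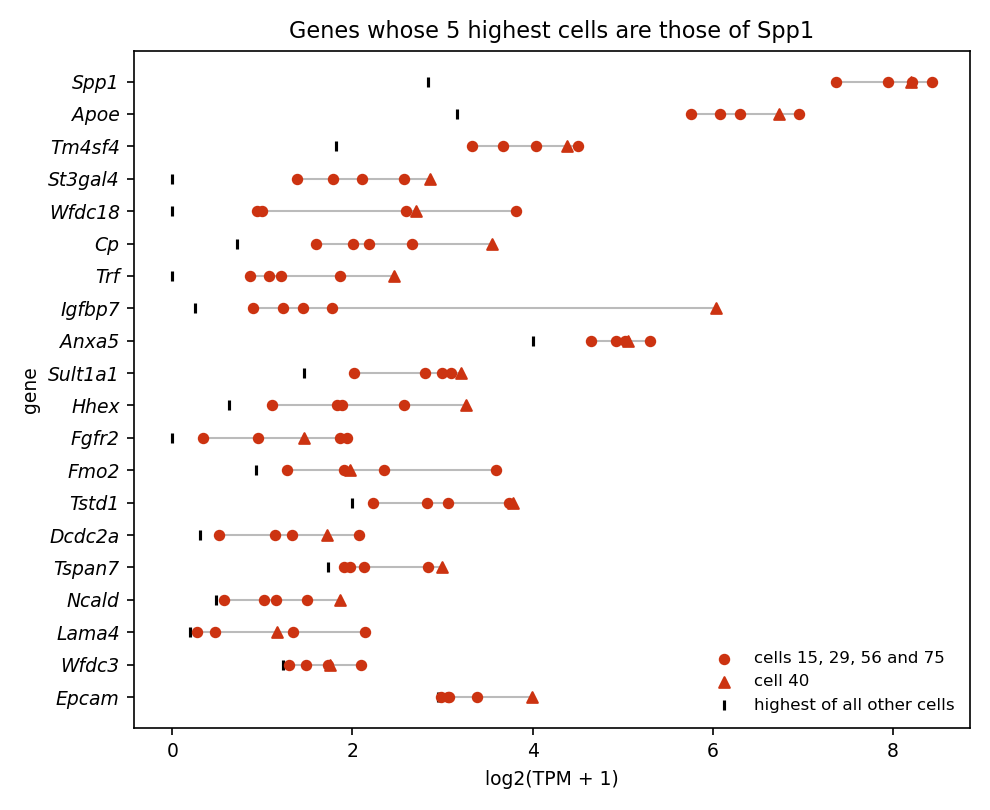
The 20 genes whose 5 highest cells are 15, 29, 40, 56 and 75, as log2(TPM + 1): circles and triangles are these cells (triangle, cell 40) and the tick is the highest of all other cells. The gap is widest for Spp1, followed by Apoe, Tm4sf4 and St3gal4, and near 0 for Epcam.

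Genes that most cells expressed were also on that list. Anxa5, a membrane-binding annexin, was detected in all but 2 cells and held 23.96 to 38.30 TPM in the 5 cells against at most 15.01 TPM elsewhere. Epcam, an epithelial adhesion molecule, was detected in 86 cells and held 9.44, 7.42, 14.96, 6.92 and 7.33 TPM against at most 6.71 TPM elsewhere. The others were Wfdc18, Igfbp7, Sult1a1, Fmo2, Tstd1, Dcdc2a, Tspan7, Ncald, Lama4 and Wfdc3. Cells 31 and 40 were taken as cycling cells, and cell cycle genes were not examined here. With cells 31 and 40 left out, the 4 remaining cells were the 4 highest for 18 genes, 17 of them among the 20.

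Acinar genes were detected in these 5 cells, as in all cells, at levels that differed among them. Digestive enzymes took 83.7%, 89.8%, 83.8%, 88.5% and 89.7% of the TPM of cells 15, 29, 40, 56 and 75, the first and the third being the 3rd and 4th lowest of all cells. Of 10 acinar markers, 9 or 10 were detected in each, a count that every cell reached. Ptf1a, a transcription factor of acinar differentiation, stood at 3.43, 12.73, 12.08, 4.18 and 21.4 TPM against a median of 10.8 TPM over all cells. Bhlha15, another such factor, stood at 3.05 TPM in cell 15, its lowest value in any cell, and at 8.83 to 15.59 TPM in the other 4, against a median of 12.8 TPM. Of 16 duct markers, 9, 9, 12, 7 and 7 were detected, against a median of 4 and at most 8 in the other cells. That list holds 8 of the 10 genes, Spp1 and Tm4sf4 among them. Of its 8 remaining markers, 3, 3, 6, 1 and 2 were detected, against at most 3 in any other cell. Their summed level was 14.6, 13.5, 43.7, 10.1 and 10.4 TPM in the same order, against at most 11.04 TPM in any other cell. Cells 15, 29 and 40 thus lay above the other cells in level, and cell 40 in number as well. Epcam, whose 5 highest cells were these, gave 9.44, 7.42 and 14.96 TPM of the sums of cells 15, 29 and 40. Aqp1 gave another 14.03 TPM in cell 40 and was at 0 in cells 15, 29, 56 and 75. Cell 40 also had the most genes detected of all cells, 6946, and held 8 of 11 endothelial markers. The source of its Aqp1, and the part of its gene number in its marker count, were not tested. The summed level of the 16 duct markers was 431.8 to 767.7 TPM in the 5 cells, against 125.2 to 569.3 TPM in the others, and both Spp1, by which the cells were picked, and Clu enter that sum.

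Cell 40, taken as a cycling cell, differed from the other 4 in further ways. It had the most genes detected of all cells, 6946, while cells 15, 29, 56 and 75 had 4132, 4622, 4365 and 4710. It held 8 of 11 endothelial markers, with a sum of 88.3 TPM, and 3 of 11 stellate and fibroblast markers, with a sum of 22.2 TPM. Cell 96, where Spp1 stood at 3.47 TPM, held 5 of those 11 stellate and fibroblast markers. In cells 15, 29, 56 and 75 the endothelial markers summed to at most 0.08 TPM and 0 were detected. Cell 15 held 0 stellate and fibroblast markers. Cells 29, 56 and 75 held 1, Sparc, at 4.29, 3.09 and 2.3 TPM. Sparc was detected in 7 of all cells, and 3 cells outside the 5 held any marker of that list. Macrophage markers, of which 7 of 13 were at 0 in every cell, numbered 1 in cell 40 and 0 in the other 4. Lymphocyte and tuft cell markers were detected in 0 cells, and the 5 mesothelial markers other than keratins were at 0 throughout. Ins2 gave the single endocrine marker, at 5.07 TPM in cell 56. Spp1 and Tm4sf4 stood at similar levels in cells 29 and 40, and the source of their RNA in either cell was not tested. No doublet caller was run, and whether the tube of cell 40, or of any of the other 4, held RNA of a second cell was not tested.

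Further lists place the 10 genes among other duct genes. Of all genes above 0 in any cell, 18.7% were detected in at least 50% of cells and 4.03% in every cell. The lists also hold genes at 0 in every cell, such as Slc9a3. The share of all genes detected in any cell was not computed, so such counts are given without it here and below. Of 22 duct surface and secreted genes, 14 were detected in any cell, 7 in at least 50% of cells and 3 in every cell, and 0 of 7 were variable. Tff2, a trefoil peptide, averaged 2306 ± 415 TPM (SD over cells), Cd24a, a surface glycoprotein, 31.4 ± 12.4 TPM and Cldn3, a claudin of tight junctions, 9.26 ± 4.81 TPM, each detected in every cell. Cldn7, another claudin, and the membrane protein Prom1 were detected in 95.4% and 96.3% of cells. As with Clu and Muc1, these duct-associated genes were general to the acinar cells.

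Of 16 genes of duct ion and fluid transport, the function of Cftr, 10 were detected in any cell and 2 in at least 50% of cells. These were the anion exchanger gene Slc26a6, in 91 cells at 3.56 ± 2.64 TPM, and the calcium-activated chloride channel gene Ano1, in 82 cells at 2.43 ± 2.17 TPM. The next highest mean, 0.376 TPM, was that of the cotransporter gene Slc12a2, detected in 4 cells. Both genes found widely are also known from acinar cells. Neither was variable.

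Of 14 genes for duct transcription factors and ciliary or cystic proteins, the class of Sox9, 11 were detected in any cell and 1 in at least 50% of cells. That gene was Nr0b2, an orphan nuclear receptor, in 95 cells at 4.04 ± 3.39 TPM. Hes1, a Notch target, and Elf3, an epithelial ETS factor, were variable at 3.16 and 2.91 times the trend, the 2 such genes of 5 set against it. Both peaked in cell 38, at 10.58 and 11.41 TPM, which was also the highest cell for Krt18 and the second highest for Krt8 at 57.87 TPM.

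Of 22 genes described in acinar-to-ductal change, the shift of acinar cells to a duct-like state after injury, 17 were detected in any cell and 0 in at least 50% of cells. Ccn1, a secreted matrix protein and a known target of YAP, was detected in 11 cells and varied at 23.7 times the trend. It held 19.90, 39.47, 27.61, 6.35 and 7.42 TPM in cells 15, 29, 40, 56 and 75 and at most 10.31 TPM elsewhere, so the ranges overlapped. S100a11, a calcium-binding protein, was detected in 39 cells and varied at 14.1 times, with 52.34 TPM in cell 40, 4.79 to 13.31 TPM in the other 4 and at most 19.67 TPM elsewhere. Amotl2, of the angiomotin family, was detected in 39 cells and peaked in cell 40 at 5.98 TPM. Of 7 receptor genes for osteopontin, 1 was detected in at least 50% of cells, the integrin Itgb1, in 93 cells at 1.95 ± 1.01 TPM, followed by Itgav in 21 cells and Itgb5 in 7.

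Taking the transport, surface and transcription factor lists as 1 set of 52 genes, 35 were detected in any cell. Cells 15, 29, 40, 56 and 75 held 20, 16, 26, 14 and 17 of them, and cell 34, next in Spp1, held 15. The other cells held from 6 to 17, with a median of 10. By this count cells 15 and 40 lay above the range of the others, while cells 29, 56 and 75 lay within its upper part. Cell 40 also had the most genes detected of all cells, 6946, and cell 15 had 4132, against a median of 4156. How far the number of genes detected in a cell enters these counts was not tested. Of the 22 genes of this set detected in at least 3 cells, 8 had their highest value in cell 40 and 0 in cells 15, 29, 56 or 75, whereas 10.3% of all 9823 such genes peaked in cell 40. Epcam and Cp, 2 of these 8, also have the 5 cells as their highest. Cp was detected in 0 other cells and so passed the filter of 3 cells through the 5 alone. The 10.3% is therefore not an independent background for the 22 genes.

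Genes with a pattern like that of a broadly detected member were ranked by Spearman correlation over all cells, among 7226 genes. Krt8 lay closest to Ubb, a ubiquitin gene (0.62), Actb, cytoplasmic actin (0.60), Krt18 (0.59) and Cfl1, the actin-severing protein cofilin (0.55), where the 99th percentile over all genes was 0.40. Its lowest values were those of the zymogen granule protein gene Sycn (-0.36) and the elastase gene Cela3b (-0.32). Krt18 lay closest to Krt8, followed by the asparagine synthetase gene Asns, Hnrnpc and Arfgap3 (each 0.52). Krt19 also lay closest to Krt8 (0.47), then to Rpf1 (0.44), Ezr, which encodes the membrane-to-actin linker ezrin (0.42), and Traf4 (0.41). In the 21 short-total cells alone, the correlation was 0.06 for Krt19 with Rpf1 and 0.20 for Krt18 with Asns.

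For the other members the closest genes were less like them. Clu lay closest to Spsb2 (0.42), the kallikrein gene Klk1b3 (0.42), Ifitm3 (0.41) and Wdr92 (0.38), and lowest with 1700113A16Rik and the chymotrypsin gene Ctrc (each -0.32). Muc1 lay closest to Ppib, an ER cyclophilin (0.43), Sec16a, a protein of ER exit sites (0.41), Trim25 (0.40) and Sidt2 (0.40), and lowest with the cholesterol synthesis gene Hmgcs1 (-0.41) and Dtnbp1 (-0.30). Sox9 lay closest to Tmsb4x, an actin-binding thymosin (0.46), Ssrp1 (0.42), Snrpb2 (0.39) and Fth1 (0.38). Its values mostly lay below 1 TPM, where single reads may decide a rank. In the short-total cells alone, the correlation was 0 for Sox9 with Fth1, 0.10 for Clu with Ifitm3 and 0.16 for Muc1 with Sec16a. The 99th percentile over all genes was 0.29 for Clu, 0.31 for Muc1 and 0.31 for Sox9.

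Krt8, Clu, Muc1 and Krt19 had similar medians in the sets of cells, while Krt18 and the detection of Sox9, Spp1 and Tm4sf4 were lower in the short-total cells. Median Krt8 was 16.9, 17.3 and 17.1 TPM in the cells numbered up to 48, in those numbered 49 to 91 and in the short-total cells, and median Clu was 188.8, 195.4 and 179.1 TPM in the same order. Muc1 stood at 25.6, 25.6 and 23.4 TPM and Krt19 at 1.62, 1.96 and 1.70 TPM. Krt18 was lower in the short-total cells, with medians of 30.7, 28.4 and 22.4 TPM, and the ranges of the sets overlapped. Its mean log2(TPM + 1) was 4.48 in short-total cells and 4.99 in cells numbered up to 48, a difference of -0.51 against a median of -0.17 over 7227 genes. With median-of-ratios scaling it was -0.20, against -0.02 over all genes. Spp1 was detected in 6 of 47, 3 of 40 and 1 of 21 cells, and Tm4sf4 in 5, 4 and 0 cells of the same 3 sets. These differences rest on few cells, and the short-total cells had fewer genes detected in general. Since no animal or day is named, differences between the sets and differences between mice or preparations cannot be told apart.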

How the data were processed

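Single acinar cells of mouse pancreas were profiled by polyadenylated RNA sequencing, 1 cell per sample (108 cells). The authors deposited 1 table of TPM (transcripts in proportion to a fixed total) for 45195 genes. STAR 2.4.2a, RSEM 1.2.21, edgeR and mm10 appear, without a stated role, per the submitters' processing notes. The unit was taken from the column sums and the 2 decimals. Read depth is unknown, and reads shared between near-identical genes cannot be placed with certainty. No cell was left out and no doublet caller was run.

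The 10 genes and the gene lists were chosen with earlier results of these data known. Symbols and 1-based coordinates come from GENCODE release M21 on GRCm38. Detection meant at least 1 TPM. Shares carry Clopper-Pearson 95% intervals. For a count of 0, the limit is 3 cells. The squared CV was set against a lowess trend on mean TPM (span 0.3) over genes reaching that level in 11 or more cells (10%). Correlations used log2(TPM + 1). Named genes were, per list, the 3 of highest mean, the 3 farthest above the trend and those in at least 90% of cells, plus keratins in at least 10% of cells and, for each member in at least 25% of cells, the 4 most and 2 least similar genes (symbols starting Gm, Rps or Rpl were not named). The genes with the same highest cells as Spp1 were chosen after values were seen. Alternatives were other detection levels, scalings, spans, pseudocounts and sets of cells. The functions were tested on simulated data. Python 3.11.15, pandas 2.3.3, scipy 1.17.1 and statsmodels 0.14.6 were used.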

Additional observations from a re-analysis of the deposited data

How the results depend on the processing

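Of 169 values recomputed under an alternative, 121 stayed within the limits set for a change, 44 moved further and 4 changed sign. The cells holding at least 3 of the 5 sparse genes numbered 4 at 1 TPM, 9 with any value above 0, 1 at 5 TPM and 0 at 10 TPM. The genes detected in every cell numbered 4, and 1 at 10 TPM. Sox9 was detected in 28 cells at 1 TPM and in 1 at 5 TPM, whereas Spp1 gave 10 and 6. The correlation of Krt8 and Krt18 was 0.59, 0.49 with median-of-ratios scaling, 0.62 in full-total cells and 0.58 without cells 31 and 40. Krt18 was variable at 2.01 times the trend, but not at 1.99 times with every gene above 0 in the trend, at 1.997 times with a lowess span of 0.5 or at 1.85 times when scaled without the digestive enzymes, a scaling that put Clu at 2.44 times. Its difference between short-total cells and cells numbered up to 48 was -0.51, -0.20 with median-of-ratios scaling and -0.43 when rescaled to each cell's total. With median-of-ratios scaling this difference changed sign for Krt8 (0.044), Krt19 (0.022) and Muc1 (0.23), and for Muc1 also when rescaled to the total (0.0057). The cause was not tested. No paired analysis was possible because all cells belong to 1 group. An alternative that adds pseudogenes of Krt8 and Krt18 to them was not run. The unknown depth limits all statements on genes below 1 TPM, and 1 group of cells without named animals gives no replicate error.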
